A study of Mus musculus with 105 samples.

Results

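The genes described here were the autosomal genes whose B6 and Cast transcripts could both be followed through differentiation of a hybrid mouse embryonic stem cell (mESC) line. They were chosen by depth alone. A gene on chromosomes 1 to 19 was kept when its allele-specific (AS) counts, B6 plus Cast, reached 100 at day 0 and again at day 4 after summing the 3 replicates of TX1072. Of 47797 autosomal genes in the count tables, which hold 52108 genes in all, 8880 passed, and a further 646 passed at day 0 only and 1184 at day 4 only. Of the 8880 genes, 8659 were protein coding. The measure was the allelic ratio log2((B6 + 1)/(Cast + 1)) of each library, where 0 is balance and a positive value is an excess of B6 transcripts, and the shift was the mean ratio at day 4 minus the mean ratio at day 0.

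TX1072 is a female F1 hybrid mESC line that carries 1 chromosome set from C57BL/6 (B6) and 1 from CAST/EiJ (Cast), so that a transcript with a base difference between the strains can be assigned to its allele. Clone A3 was used, in which Rosa26 holds the rtTA transactivator and the B6 copy of Xist has a promoter that responds to doxycycline. Day 0 cells grew in serum with Lif and 2i, an inhibitor of Gsk3 (CT-99021) and an inhibitor of MEK (PD0325901). Days 1 to 4 followed 2i/Lif withdrawal, with 3 replicates on every day. TXdXicB6 (clone A1) and TXdXicCast (clone A6) are derivatives of TX1072 that lack a segment around Xist on the X chromosome of the named allele, and were sampled on the same days with 3 replicates each. Each line is 1 clone, so a strain difference and a state of the clone cannot be told apart. The TX1072 libraries held 19827011 to 39628784 counts, of which 3552155 to 8029672 (17.9 to 20.3%) were AS counts, and the median gene of the set had 1882 AS counts over days 0 and 4 together.

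In an F1 hybrid both alleles of a gene sit in the same nucleus and meet the same transcription factors, so an unequal output of the alleles is commonly traced to what lies on or is attached to each chromosome copy, such as a regulatory base change, a DNA methylation state or an imprint inherited from a parent. When 2i and Lif are withdrawn, mESCs leave naive pluripotency, pass through a formative state that resembles the early post-implantation epiblast, and regain the DNA methylation that 2i keeps low.

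The libraries followed their labels. The summed level of 7 mESC markers was 5620, 5893 and 6286 CPM in the 3 day 0 replicates. At day 4 it was 946, 1024 and 1057 CPM. Of these markers, Tfcp2l1 was the most abundant at day 0 and Pou5f1 at day 4. CPM here are counts scaled to the total of the library times its normalization factor (TMM, from autosomal genes). The 5 epiblast markers summed to 249, 311 and 250 CPM at day 0, against 1960, 1530 and 1525 CPM at day 4, with Krt18 the most abundant then. Markers of other cells were low by comparison, but some of them changed. The 4 endoderm markers summed to 1.00, 1.17 and 1.89 CPM at day 0 and 35.3, 9.07 and 8.57 CPM at day 4, and all 4 rose in the edgeR test of total expression. The first of these replicates owed its value to Foxa2 at 28.8 CPM. The 5 fibroblast feeder markers summed to between 17.1 and 23.5 CPM at day 0 and between 14.2 and 14.7 CPM at day 4, a sum in which Dcn (0.060 to 3.95 CPM) and Postn rose, Col1a2 (10.6 to 1.98 CPM) fell, and Thy1 and Pdgfrb did not pass the test. The most abundant were Col1a2 at day 0 and Thy1 at day 4, and no marker of any of these lists was at 0 in all replicates of a day. A shift of a bulk ratio can come from all cells or from a subset, and fewer cells of a type and less RNA per cell cannot be told apart. The part of these minor cell types in the shifts was not tested.

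About 1 gene in 5 changed its allelic ratio between day 0 and day 4. edgeR's quasi-likelihood test of the allele by day term, with Benjamini-Hochberg adjustment over the genes of all chromosomes, called 1721 of the 8880 autosomal genes (19.4%) at an adjusted p under 0.05. The calls were split nearly evenly, with 835 genes (9.4%) toward B6 and 886 genes (9.98%) toward Cast. Most called shifts were modest. Their median absolute size was 0.71 on the log2 scale, against 0.20 over all 8880 genes, while 541 called genes moved by at least 1 (263 toward B6 and 278 toward Cast), 128 by at least 2, 44 by at least 3 and 16 by at least 4. The day 0 and day 4 replicates did not overlap in 2839 genes (32.0% of the set), which include 1642 of the called genes. The remaining 79 called genes had overlapping replicates. On the X chromosome the same test called 46 of 285 genes. The centre of the ratio hardly moved. The median shift over the 8880 genes was -0.0026 (exact two-sided permutation test over the 6 libraries, p = 0.8, where 0.1 is the smallest p that 3 against 3 allows).

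**Figure D1:**
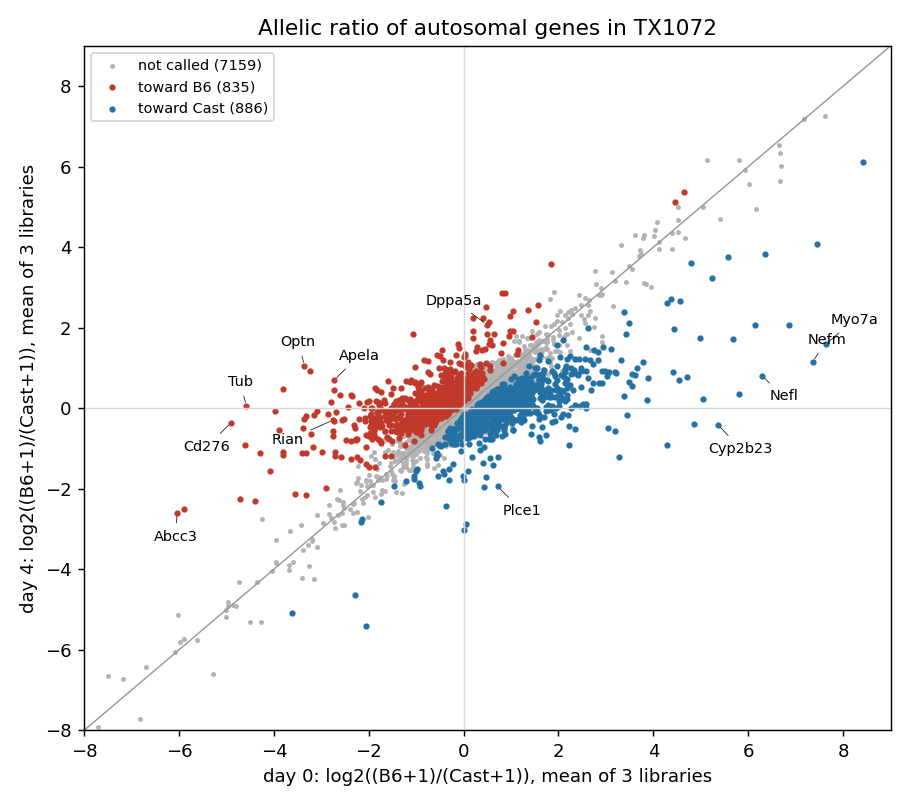
Allelic ratio of the 8880 autosomal genes in TX1072, log2((B6 + 1)/(Cast + 1)), as the mean of 3 replicates at day 0 (x axis) against day 4 (y axis), with genes called toward B6 and toward Cast in colour. Most genes lie near the diagonal, and the called genes at the far left and far right, strongly skewed at day 0, lie closer to 0 on the y axis.

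The largest shifts toward B6 belonged to genes with a low B6 output in mESCs. In the 10 largest, B6 gave between 0.903% (Abcc3) and 13.0% (Apela) of AS counts at day 0. Tub, which encodes a membrane-bound protein of cilia and neurons (chr7:108950338-109034460), had ratios of -4.40, -4.18 and -5.16 in the day 0 libraries and -0.09, 0.18 and 0.09 in those of day 4. The B6 share of its AS counts went from 4.2% to 50.9%, a shift of 4.64 ± 0.31 (SE, n = 3 per day; adjusted p = 8.3e-19). For Cd276, which encodes the immune checkpoint ligand B7-H3 (chr9:58524298-58555437), the ratios were -4.92, -4.98 and -4.81 in the day 0 libraries and -0.09, -0.58 and -0.39 in those of day 4. Only 5, 4 and 4 B6 counts stood against 181, 157 and 139 Cast counts at day 0, and 387, 440 and 339 against 413, 659 and 446 at day 4. Both alleles of Cd276 rose, the B6 allele far more (shift 4.55 ± 0.15, adjusted p = 1.4e-16). Optn, the autophagy receptor optineurin (chr2:5020642-5064051), crossed balance: its ratios of -3.56, -3.55 and -2.96 at day 0 became 0.75, 0.96 and 1.44 at day 4, with a shift of 4.41 ± 0.28 (adjusted p = 4e-19). None of these 3 genes had overlapping replicates. The rest of the 10 largest toward B6 were Slc1a3 (a glutamate transporter, 4.28), Chst11 (a chondroitin sulfotransferase, 4.15), Lrrc8b (a subunit of volume-regulated anion channels, 3.90), Mfap5 (a microfibril protein, 3.71), Abcc3 (an export pump, 3.44), Apela (the ligand of the apelin receptor, 3.43) and Mnd1 (a meiotic recombination factor, 3.41). In the edgeR fit the shift of Mnd1 was 3.98, and 7.10 without day 0 replicate 1. Abcc3 and Mnd1 remained far on the Cast side at day 4, with 13.3% and 14.8% of AS counts from B6.

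The largest shifts toward Cast were of greater size and mirrored this pattern, with B6 shares at day 0 between 93.1% (Rab38) and all AS counts (Nefm). Nefm and Nefl encode the medium and light neurofilament chains, structural proteins of axons, and lie side by side on chromosome 14, where their annotated spans overlap on opposite strands (chr14:68082590-68124846 and chr14:68083863-68089095). Nefm had 216, 136 and 147 B6 counts at day 0 and no Cast count in any of the 3 libraries, which allows a Cast share of up to 0.601% of its 499 AS counts. At day 4 it had 162, 301 and 275 B6 counts against 70, 143 and 120 Cast counts, and the ratio, with 1 added to each count, moved by -6.20 ± 0.21 (adjusted p = 3.7e-14). For Nefl, the ratios of 5.60, 6.35 and 6.92 at day 0 became 0.79, 0.84 and 0.78 at day 4, a shift of -5.49 ± 0.38 (adjusted p = 1.1e-19). Neither gene returned to balance, with B6 shares of 68.9% and 63.4% at day 4. Cyp2b23, a cytochrome P450 gene of a family of close paralogs whose reads may be shared (chr7:26665227-26686437), moved by -5.77 ± 0.35 (adjusted p = 2e-18), from ratios of 4.93, 6.02 and 5.13 to -0.21, -0.61 and -0.41. Its B6 allele fell while its Cast allele rose from between 2 and 5 counts a library to between 65 and 138. The others were Myo7a (a sensory myosin, -6.04), Tiam2 (an activator of Rac, -5.47), P2ry2 (a purinergic receptor, -5.24), Msc (the repressor musculin, -5.21), Ppp1r1a (an inhibitor of protein phosphatase 1, -4.81), Uggt2 (a glycoprotein glucosyltransferase, -4.79) and Rab38 (a small GTPase of melanosome traffic, -4.50). All 20 genes with the largest shifts were closer to balance at day 4 than at day 0. The spans of 12 of the 20 overlap another annotated gene. No strand setting of the counting is stated, so reads of the overlapping gene cannot be told apart. Over the 3921 genes whose span overlaps no other gene, the share called was 18.8%.

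Several genes with less extreme ratios also had very small adjusted p-values. Dstn, which encodes the actin-severing protein destrin, rose from ratios of -1.28, -1.29 and -1.12 to 0.19, 0.23 and 0.24, a shift of 1.45 ± 0.06 (adjusted p = 8e-21). Its B6 allele went from 74.0, 62.4 and 59.4 CPM to 186, 151 and 176 CPM, while the Cast allele stood at 180, 153 and 130 CPM at day 0 and at 162, 128 and 150 CPM at day 4. Cald1, the actin-binding protein caldesmon, shifted by 2.01 ± 0.14 (adjusted p = 5e-19). Toward Cast, Plce1, a phospholipase C that responds to Ras, moved from 0.70, 0.92 and 0.54 to -1.99, -2.08 and -1.76 (shift -2.66 ± 0.15, adjusted p = 1e-18), so that the higher allele changed. Nxn, the redox regulator nucleoredoxin, moved by -3.13 ± 0.15 (adjusted p = 5.6e-18) and also changed its higher allele, from 82.0% to 34.6% B6.

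The start-site windows of these genes show how many base differences between the strains lie near a promoter. RefSeq's table for GRCm38.p6, the build of the files, gave exactly 1 window of 300 bases (250 before to 50 after the start) for 5629 of the 8880 genes. Among the protein-coding genes with the 5 smallest adjusted p-values in each direction, those with 1 window were Apela, Optn, Tub, Dstn, Cyp2b23, Nxn and Plce1. The B6 base is in capitals at each position where the deposited list places a difference from Cast. The windows were chr7:26686381-26686680 on the minus strand for Cyp2b23, chr2:143915081-143915380 on the plus strand for Dstn, chr19:38523947-38524246 on the plus strand for Plce1 and chr11:76399092-76399391 on the minus strand for Nxn. The window of Optn (chr2:5064068-5064367, minus strand), shown for contrast, holds no listed difference although its gene shifted by 4.41.
Cyp2b23: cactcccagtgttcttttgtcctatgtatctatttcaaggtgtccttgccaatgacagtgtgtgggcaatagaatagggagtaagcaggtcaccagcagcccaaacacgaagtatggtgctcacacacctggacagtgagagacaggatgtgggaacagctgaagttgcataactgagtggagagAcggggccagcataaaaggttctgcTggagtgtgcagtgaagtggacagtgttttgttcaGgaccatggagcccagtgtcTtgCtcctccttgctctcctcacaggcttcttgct
Dstn: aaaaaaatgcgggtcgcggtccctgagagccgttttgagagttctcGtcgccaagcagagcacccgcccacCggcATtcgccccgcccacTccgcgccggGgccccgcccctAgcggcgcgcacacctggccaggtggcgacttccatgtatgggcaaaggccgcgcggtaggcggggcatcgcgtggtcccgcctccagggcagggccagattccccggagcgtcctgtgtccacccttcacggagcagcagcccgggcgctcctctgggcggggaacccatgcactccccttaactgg
Plce1: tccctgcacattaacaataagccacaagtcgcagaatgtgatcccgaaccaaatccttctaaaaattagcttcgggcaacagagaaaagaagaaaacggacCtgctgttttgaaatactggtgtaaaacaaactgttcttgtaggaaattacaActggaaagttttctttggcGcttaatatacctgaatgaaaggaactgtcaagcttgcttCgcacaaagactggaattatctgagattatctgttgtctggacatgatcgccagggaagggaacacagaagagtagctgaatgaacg
Nxn: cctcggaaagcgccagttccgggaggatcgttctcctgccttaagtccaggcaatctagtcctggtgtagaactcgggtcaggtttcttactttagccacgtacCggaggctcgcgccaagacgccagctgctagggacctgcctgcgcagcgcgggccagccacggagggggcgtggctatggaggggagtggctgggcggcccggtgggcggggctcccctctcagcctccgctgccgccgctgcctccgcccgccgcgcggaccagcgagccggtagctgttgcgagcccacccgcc
Optn: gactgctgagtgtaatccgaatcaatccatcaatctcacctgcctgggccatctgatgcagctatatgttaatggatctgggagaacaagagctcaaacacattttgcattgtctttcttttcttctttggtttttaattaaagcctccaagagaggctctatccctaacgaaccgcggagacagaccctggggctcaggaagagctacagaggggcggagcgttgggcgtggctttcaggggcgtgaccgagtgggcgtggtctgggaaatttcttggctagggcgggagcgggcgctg
Counted from 1 at the 5′ end of each window, with the B6 base first and the Cast base last, the differences were A186G, T211C, G246A, T266C and C269A in Cyp2b23, G47C, C72T, A76G, T77C, T91C, G101A and A113G in Dstn, C102G, A154G, G174T and C214T in Plce1, and C105G in Nxn. The windows of Apela and Tub, like that of Optn, held none. For Tub and Plce1 the window lies at a start well inside the annotated span of the gene, and other starts of these genes were not examined. Across the genes with 1 window, at least 1 difference was present in 66.4% of 996 called genes, 58.4% of 4633 genes that were not called and 70.1% of 288 called genes that shifted by at least 1, beside 59.8% of all 5629. These shares are descriptions, and whether a difference in a window bears on a shift was not tested.

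Among the called genes, the alleles came closer together more often than they moved apart. Of the 1721 called genes, 1273 (74.0%) had a mean ratio nearer to 0 at day 4 than at day 0, and 448 a ratio farther from 0. Their median absolute ratio was 0.65 at day 0 and 0.29 at day 4. Among the 7159 genes that were not called, 56.4% were nearer to 0 at day 4, with median absolute ratios of 0.23 and 0.21. Over all 8880 genes, 5313 (59.8%) were nearer to 0 at day 4 and 3567 farther from it. Both directions shared the pattern, with 584 of 835 genes called toward B6 and 689 of 886 called toward Cast nearer to balance. It was strongest in the large shifts, where 112 of 128 genes that moved by at least 2 came closer and the median absolute ratio went from 2.95 to 0.67. The contrast that gives the calls also gives these counts, which are therefore a description. Over all measured genes, called or not, the SD of the ratio over the 8880 genes was 0.921, 0.935 and 0.948 in the 3 day 0 libraries and 0.736, 0.769 and 0.748 at day 4. The means by day were 0.935, 0.871, 0.824, 0.789 and 0.751 from day 0 to day 4, and the day 0 and day 4 libraries did not overlap (exact permutation test, p = 0.1, the smallest that 3 against 3 allows). The AS counts of the day 0 libraries (4312041 to 7615376) spanned those of day 4 (5617563 to 6392794), and the part of depth in the SD was not tested. The number of genes with over 95% of AS counts on 1 allele was 82, 71, 59, 58 and 58 on the 5 days, and that with over 80% was 355, 289, 247, 219 and 197. Of the 82 genes over 95% at day 0, 35 were under it at day 4, and 31 of these were called. The 11 genes that entered this range by day 4 include 3 called ones, Btg3, Ccnb1ip1 and Gstp2, named because they are so few.

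**Figure D2:**
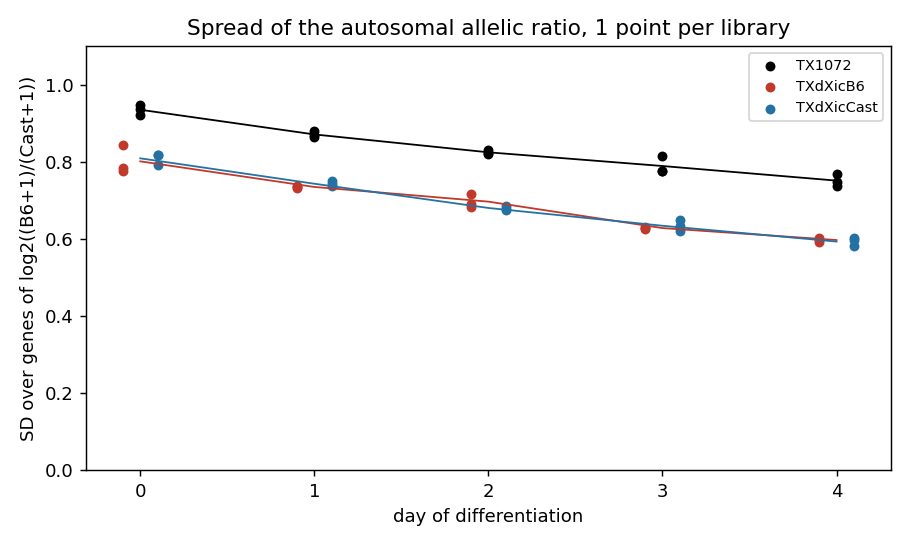
SD over genes of the allelic ratio, log2((B6 + 1)/(Cast + 1)), in each library of TX1072, TXdXicB6 and TXdXicCast (y axis) by day of differentiation (x axis), with points for replicates and lines through the day means. The SD is lower on each later day in all 3 lines, from 0.935 to 0.751 in TX1072.

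Most of the shift had taken place by day 2. Tested against day 0 in the same fit, the allelic ratio had changed in 1325 genes at day 1 (14.9%; 668 toward B6 and 657 toward Cast), 1660 at day 2 (18.7%), 1575 at day 3 (17.7%) and 1721 at day 4. With DESeq2 the counts on days 1 to 3 were 792, 1101 and 1110. These contrasts share the day 0 libraries. For the 541 genes called at day 4 with a shift of at least 1, the median shift in the day 4 direction rose through 0.78, 1.22 and 1.37 on days 1, 2 and 3 to 1.47 on day 4. Single genes took different courses. Cyp2b23 had completed its move within a day, with mean ratios of 5.36 ± 0.58 (SD, n = 3) at day 0, -0.45 ± 0.04 at day 1 and -0.41 ± 0.20 at day 4. Apela likewise went from -2.73 ± 0.17 to 0.59 ± 0.22 at day 1. Nxn moved in 1 direction through 2.22, 1.05, 0.42, -0.01 and -0.91. Plce1 first stood at 1.26 ± 0.15 at day 1, on the B6 side of its day 0 mean of 0.72 ± 0.19, before it moved to -1.57 ± 0.28 at day 2. Optn reached its highest mean at day 3, 2.28 ± 0.57, and stood at 1.05 ± 0.35 at day 4.

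**Figure D3:**
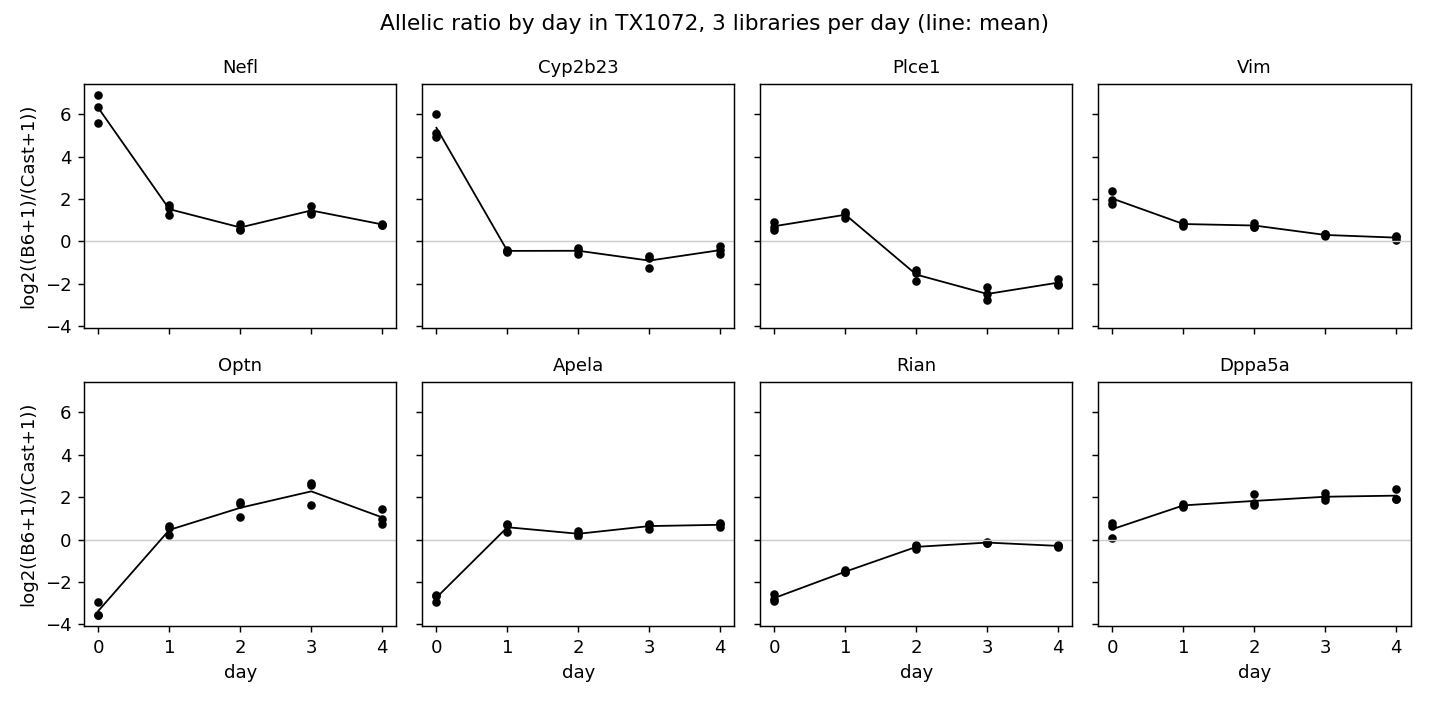
Allelic ratio, log2((B6 + 1)/(Cast + 1)), on days 0 to 4 in TX1072 for genes with large or well-measured shifts (points for the 3 replicates, black lines through the means, grey line at balance). Cyp2b23 and Apela have left their day 0 ratio by day 1, Plce1 moves after day 1, and Dppa5a ends farther from 0 than it began.

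Large shifts came more often with a rise of the allele that gained share than with a fall of the other. Allele levels were compared as CPM, scaled to the total of all counts in the library times its TMM factor. Of the 263 genes called toward B6 by at least 1, the B6 allele was at least 2-fold higher at day 4 in 136 with the Cast allele within 2-fold or higher, the Cast allele was at least 2-fold lower in 83 with the B6 allele within 2-fold or lower, both held in 10 and neither in 34. The 278 genes called toward Cast divided in nearly the same way, with 141 by a rise of Cast, 86 by a fall of B6, 15 by both and 36 by neither. The median log2 change was 1.27 for the B6 allele and -0.45 for the Cast allele in the first group, and 1.32 for Cast and -0.57 for B6 in the second. Rian is an instance of a shift in which both alleles rose: B6 went from 8.12, 7.50 and 10.9 CPM to 150, 121 and 125 CPM, and Cast from 60.8, 51.8 and 64.9 CPM to 176, 151 and 157 CPM. Manba, the lysosomal beta-mannosidase, shows a fall of 1 allele: B6 went from 76.7, 80.9 and 62.3 CPM to 13.1, 14.5 and 12.7 CPM, whereas Cast changed by only -0.54 on the log2 scale, and the ratio went from 2.00, 1.75 and 1.81 to -0.20, -0.05 and 0.09.

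**Figure D4:**
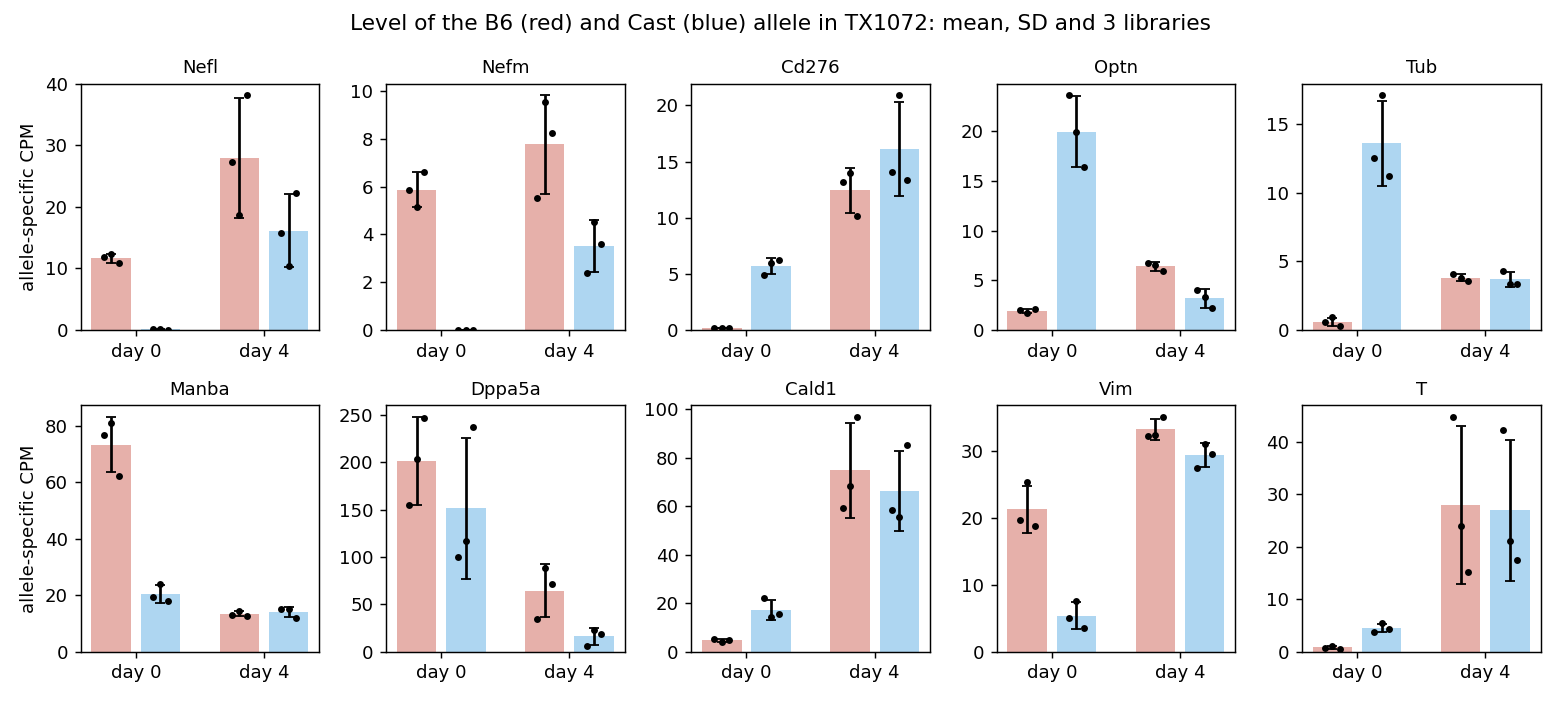
Levels of the B6 allele (red) and the Cast allele (blue) in CPM at day 0 and day 4 in TX1072 for 10 genes that shifted. CPM (y axis, from 0, own scale in each panel) are AS counts scaled to all counts of the library times its TMM factor. Bars show the mean, error bars the SD and points the 3 libraries. In Nefl, Nefm and Cd276 an allele near 0 at day 0 gives a clear level at day 4, and in Manba the B6 allele falls to the level of Cast.

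Shifts occurred in genes with and without a change in total expression. Total expression, tested with edgeR on all counts, changed in 5172 of the 8880 genes (58.2%). Of the 2211 genes that rose in total, 26.6% had a called shift, compared with 22.3% of the 2961 genes that fell and 12.7% of the 3708 genes with no call in total. The share climbed with the size of the total change, from 12.8% of the genes that moved by at most 0.5 on the log2 scale to 41.6% of those that moved by over 2. The share of called shifts was 14.2% in the lowest quartile of AS counts and 26.7% in the highest. Within the highest quartile it was 17.7% for total changes up to 0.5 and 54.4% for those over 2, and within the lowest 9.42% and 30.1%. Chst11 is an example of a large shift beside a small change in total, with a shift of 4.15 and a total log2 change of -0.09, as are Slc1a3 (4.28 and -0.22) and Nxn (-3.13 and -0.15). In these genes the fall of 1 allele was matched by a rise of the other.

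The higher allele itself switched in 211 genes (2.38%; 124 genes with DESeq2), in which the ratio differed from 0 at both days in opposite directions at an adjusted p under 0.05. B6 was the higher allele at day 4 in 122 of them and Cast in 89, and 107 of the 211 shifted by at least 1. The largest switches toward B6 were Optn, Slc1a3, Chst11, Apela and Nrp2, the semaphorin co-receptor neuropilin 2, which went from 14.1% to 56.1% B6. The largest toward Cast were Cyp2b23, Msc, Rab38, Slc30a2 (a zinc exporter, 91.2% to 40.3% B6) and Prr5l (a partner of mTORC2, 88.8% to 41.5% B6).

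Genes of the pluripotency network changed their ratio in both directions. Of 35 measured genes of naive and core pluripotency, 11 shifted toward B6 and 4 toward Cast (42.9%, beside 19.4% of all genes), with a median absolute shift of 0.38 beside 0.20 for all genes. Zfp42 (Rex1), a marker of naive cells, stood at -3.32, -3.58 and -3.75 at day 0 and at -1.91, -2.11 and -2.35 at day 4, a shift of 1.43 ± 0.18 (adjusted p = 1.1e-08) in a gene whose total fell by 3.15 on the log2 scale. Dppa5a, an RNA-binding protein of mESCs, moved away from balance, from 0.63, 0.80 and 0.06 to 2.39, 1.93 and 1.91 (1.58 ± 0.27, adjusted p = 3.8e-12). Fbxo15, an F-box protein and target of Oct4, did the same, from 53.4% to 79.3% B6. Of the 15 called genes of this list, 9 came closer to balance. The called genes went mostly the other way in the lists of glutathione and detoxification (2 of 10 closer), interferon and antigen presentation (2 of 5), ribosomal proteins (1 of 7) and housekeeping (1 of 4). In each of the other lists, most called genes came closer, as did 74.0% of all called genes. These lists hold few called genes and were chosen with earlier results of these data known. Differences between lists were not tested. Nor was the part of total change or of depth in the share called in a list.

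Of the 18 measured genes of the formative state and epiblast, 7 shifted toward B6 and 8 toward Cast (83.3%, beside 19.4% of all genes), with a median absolute shift of 0.66. Lin28b, which blocks maturation of let-7 microRNAs, rose from ratios of -1.68, -1.78 and -2.42 to -0.10, 0.02 and 0.10 (1.96 ± 0.24, adjusted p = 9.5e-12). Pou3f1, a transcription factor of the formative state, shifted by 1.63 ± 0.21 (19.1% to 45.5% B6). Foxd3, a repressor of naive enhancers, moved the other way by -2.33 ± 0.31, and Fst, the activin antagonist follistatin, by -1.87 ± 0.21. The de novo methyltransferase Dnmt3b crossed balance with little spread, from -0.35, -0.44 and -0.40 to 0.31, 0.27 and 0.35 (adjusted p = 5.5e-13). In this list 13 of the 15 called genes were nearer to balance at day 4.

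Genes of later lineages were measured in part, namely 26 of 51 mesenchymal and actin-regulated, 6 of 20 neural, 3 of 23 mesoderm and 6 of 23 endoderm genes. Of 26 measured mesenchymal and actin-regulated genes, 9 moved toward B6 and 6 toward Cast (57.7%, beside 19.4% of all genes), with a median absolute shift of 0.46. Vim, the intermediate filament vimentin, had ratios of 1.95, 1.74 and 2.36 in the day 0 libraries and 0.23, 0.06 and 0.25 in those of day 4 (-1.84 ± 0.19, adjusted p = 1.4e-16). Col4a1, a basement membrane collagen, shifted by 1.39 ± 0.14. Zeb1, a repressor of epithelial genes, went farther from balance, from ratios of 0.68, 0.85 and 0.91 to 2.52, 2.58 and 3.48. Of 6 measured neural genes, 1 moved toward B6 and 4 toward Cast (83.3%, beside 19.4% of all genes). Those toward Cast were Nefm, Nefl, the microtubule protein Map2 and the neuronal tubulin Tubb3 (67.5% to 44.5% B6, adjusted p = 6.8e-08). For Map2 (-1.04 ± 0.25, adjusted p = 0.03) the call was lost with DESeq2 (adjusted p = 0.106) and when any 1 of 5 libraries was left out. Of 3 measured mesoderm genes, 2 were called, both toward B6 (66.7%, beside 19.4% of all genes). T (brachyury) moved from 15.7% to 50.8% B6 and Tbx20 from 15.9% to 54.3%. The call of T (adjusted p = 6.7e-10) was lost with DESeq2 (adjusted p = 0.0846) and with limma. Of 6 measured endoderm genes, 1 moved toward B6 and 3 toward Cast (66.7%, beside 19.4% of all genes). Laminin beta 1, Lamb1, went from 25.7% to 49.9% B6. The call of Lama1, toward Cast, was lost under 6 of 11 alternatives, among them DESeq2 (adjusted p = 0.0624) and limma (adjusted p = 0.0569). Of 4 measured fibroblast feeder markers, Thy1 alone was called, with a shift of -2.67 ± 0.26 while its total level did not pass the test.

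Imprinted genes, which are expressed from the maternal or the paternal copy, shifted in both directions. Of 57 listed, 31 were measured, 6 shifted toward B6 and 5 toward Cast (35.5%, beside 19.4% of all genes), and the median absolute shift was 0.27, beside 0.20. The clearest change was in the non-coding RNAs of the Dlk1-Dio3 domain on chromosome 12, known to be expressed from the maternal copy. Rian had ratios of -2.90, -2.78 and -2.57 in the day 0 libraries and -0.23, -0.32 and -0.33 in those of day 4, a shift of 2.46 ± 0.10 with an adjusted p of 1.2e-25. Meg3 shifted by 2.40 ± 0.19 (12.5% to 44.0% B6) and Mirg by 2.58 ± 0.21 (13.0% to 48.1% B6). All 3 were close to their day 4 ratio at day 2, when their means were -0.34, -0.04 and -0.05. At day 4 both alleles of these genes thus gave similar numbers of reads. Which strain was the mother of the F1 line is not stated, so neither allele can be named the maternal one here. Peg10 and Sgce, neighbours that share a start region and are known as paternally expressed, moved together toward Cast. For Peg10 the ratios went from 0.65, 0.49 and 0.61 to -0.57, -0.64 and -0.60 (-1.19 ± 0.05, adjusted p = 4.1e-15), and for Sgce the shift was -1.20 ± 0.28. Both alleles of Peg10 rose, by 3.62 (B6) and 4.80 (Cast) on the log2 scale. Inpp5f (1.51 ± 0.22), Usp29 (-1.50 ± 0.19) and Impact (0.35 ± 0.07) were also called. The calls of Mest, Gnas and Snrpn had adjusted p-values of 0.044, 0.0098 and 0.046 and were lost with DESeq2. Each was also lost when 1 library or another was left out. In the edgeR fit the shift of Gnas was -0.46, and -0.25 without day 0 replicate 1.

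Signalling and metabolic genes shifted in both directions, and the share called in each list stands beside 19.4% over all genes. Of 15 measured feedback genes and targets of ERK and Wnt, pathways that the 2i inhibitors act on, 6 moved toward B6 and 2 toward Cast (53.3%). Cyclin D1, Ccnd1, went from 23.5% to 49.6% B6 (1.73 ± 0.12, adjusted p = 3.3e-16). Of 20 glycolysis genes, 4 moved each way (40.0%), among them the pyruvate dehydrogenase kinase Pdk1 (1.21 ± 0.15) and the glucose transporter Slc2a3 (-0.62 ± 0.04). Of 22 genes of cholesterol synthesis, 4 moved toward B6 and 3 toward Cast (31.8%). Of 11 genes of interferon response and antigen presentation, 4 moved toward B6 and 1 toward Cast (45.5%). The antiviral membrane proteins Ifitm1 (40.4% to 71.3% B6), Ifitm3 (44.6% to 58.3%) and Bst2 (56.9% to 82.9%) were all among the former. Of 22 genes of glutathione metabolism and detoxification, 6 moved toward B6 and 4 toward Cast (45.5%). Gstp1 and Gstp2 both moved toward Cast (-1.16 and -2.35), but are near-identical copies whose reads could be split wrongly. Of 31 genes of DNA methylation and Polycomb, 3 moved toward B6 and 4 toward Cast (22.6%, close to the share over all genes), with Tet1, a 5-methylcytosine oxidase, at -0.49 ± 0.08. The call of Dnmt3a (0.37 ± 0.22, adjusted p = 0.039) was lost with DESeq2, with limma and when any 1 of 3 libraries was left out. Its shift in the edgeR fit was 0.43, and 0.17 without day 0 replicate 1.

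Housekeeping and ribosomal protein genes were called in both directions, and whether their shares differ from that over all genes was not tested. Of 32 measured housekeeping genes 2 moved each way (12.5%, beside 19.4% of all genes), with a median absolute shift of 0.10. The calls of Vdac1, the mitochondrial outer membrane channel (-0.33 ± 0.10), and of the glycolytic enzyme Pkm (0.15 ± 0.02) were lost with limma (adjusted p = 0.0584 and 0.172). Of 72 cytosolic ribosomal protein genes 4 moved toward B6 and 3 toward Cast (9.72%, beside 19.4% of all genes), with a median absolute shift of 0.18. The call of Rps20 was lost with DESeq2 (adjusted p = 0.0534) and with limma (adjusted p = 0.130). Ribosomal protein genes have many processed copies in the genome, which may make their allele counts uncertain, and this was not tested. Of 251 zinc finger genes named Zfp, 19 moved toward B6 and 17 toward Cast, a share of 14.3% beside 19.4% over all genes, with Zfp459 (-1.68 ± 0.24), Zfp334 (1.51 ± 0.10), Zfp69 (1.50 ± 0.25) and Zfp516 (-1.45 ± 0.10) the largest.

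Whole chromosomes moved little. With counts summed over all measured genes of a chromosome, the ratio moved by between -0.0721 (chromosome 5) and 0.103 (chromosome 2). The day 0 and day 4 libraries did not overlap for 12 of 19 chromosomes (exact permutation test, p = 0.1 each, adjusted p = 0.158), and for 4 by the median over genes. The median shift over the genes of a chromosome lay between -0.0441 and 0.0394. The share of genes called ranged from 16.1% on chromosome 8 to 26.8% on chromosome 1. Adjacent genes often moved the same way. Of 384 pairs of adjacent called genes within 100 kb whose spans do not overlap each other, 275 (71.6%) moved in the same direction, and so did 136 of 185 pairs on opposite strands (73.5%). In comparison, 50.4% of 1592 pairs of called genes over 5 Mb apart on the same chromosome did. Ifitm1 and Ifitm3, Peg10 and Sgce, and Meg3 and Rian are such pairs. In many of the 384 pairs, Meg3 and Rian among them, a member overlaps some other annotated gene. Pairs free of any overlap were not counted apart. Dppa2 and Dppa4, a pair of pluripotency genes on chromosome 16, moved in opposite directions, by -0.92 and 1.20 in the edgeR fit.

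The deletion lines, whose libraries the calls in TX1072 did not use, gave the same direction for nearly all of these genes. Their libraries were made with another kit and longer reads and held 1347911 to 16926246 AS counts in TXdXicB6, where replicate 1 of day 0 had 5.21% AS counts, and 5280705 to 18668121 in TXdXicCast, whose day 0 RNA was partly degraded and fragmented differently. Of the 1721 called genes, 1684 were measured in both lines, and the shift averaged over the lines had the same sign in 1635 (97.1%). In the edgeR fit of these 30 libraries, 3081 of 8683 genes were called (35.5%), and 1413 of the 1684 (83.9%) were called in the same direction, against 3 called in the opposite one. Among the genes not called in TX1072, 67.4% had the same sign and 23.8% were called. Each line alone gave a similar picture, with 1160 of 1684 genes called in the same direction in TXdXicB6 (68.9%; 21.3% of all genes were called) and 1263 in TXdXicCast (29.8% of all genes were called). Across the 1684 genes, which are not independent replicates, the shifts correlated with Pearson's r of 0.947. Of 115 measured genes with a shift of at least 2, 112 were called in the same direction. Optn had ratios of -3.71, -2.97 and -2.94 in TXdXicB6 at day 0 and 1.21, 1.73 and 0.67 at day 4. In TXdXicCast its ratios were -3.27, -3.37 and -3.06 in the day 0 libraries and 0.92, 1.14 and 0.68 in those of day 4. Nefl had 4.75, 5.09 and 5.74 in TXdXicB6 at day 0 and 0.83, 0.79 and 0.85 at day 4. In the edgeR fit Rian shifted by 2.45 ± 0.07 in TXdXicB6 and by 2.39 ± 0.07 in TXdXicCast. In these genes the day 0 and day 4 libraries of both lines lay on the same sides as in TX1072.

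The course and the approach to balance were also seen in the deletion lines. For the genes with a shift of at least 1 in TX1072, of which 505 were measured, the median shift in the TX1072 direction was 0.55, 1.03 and 1.24 on days 1 to 3 in TXdXicB6 and 0.68, 1.17 and 1.26 in TXdXicCast, where it reached 1.41 on day 4. In TXdXicB6, 1214 of the 1684 genes called in TX1072 (72.1%) were nearer to balance at day 4, and in TXdXicCast 1240 (73.6%). The share over all genes was not counted in these lines (59.8% in TX1072). The SD of the ratio over genes went from a mean of 0.801 to 0.597 in TXdXicB6 and from 0.809 to 0.593 in TXdXicCast, with no overlap of day 0 and day 4 libraries in either line (exact permutation test, p = 0.1, the smallest possible). Of 205 switching genes measured, 181 had the same higher allele as TX1072 at both days in TXdXicB6 and 179 in TXdXicCast. The shift itself differed between the deletion lines in 90 of 8683 genes (1.04%, allele by day by line term in edgeR), 23 of them called in TX1072. Beside 83.9% of all called genes measured, none of the 7 called ribosomal protein genes was called in the same direction in the deletion lines. All 15 called mesenchymal genes, 14 of 15 pluripotency genes, 11 of the 14 measured formative and epiblast genes, 9 of 11 imprinted genes, 8 of 10 glutathione and detoxification genes and 23 of 36 Zfp genes were.

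**Figure D5:**
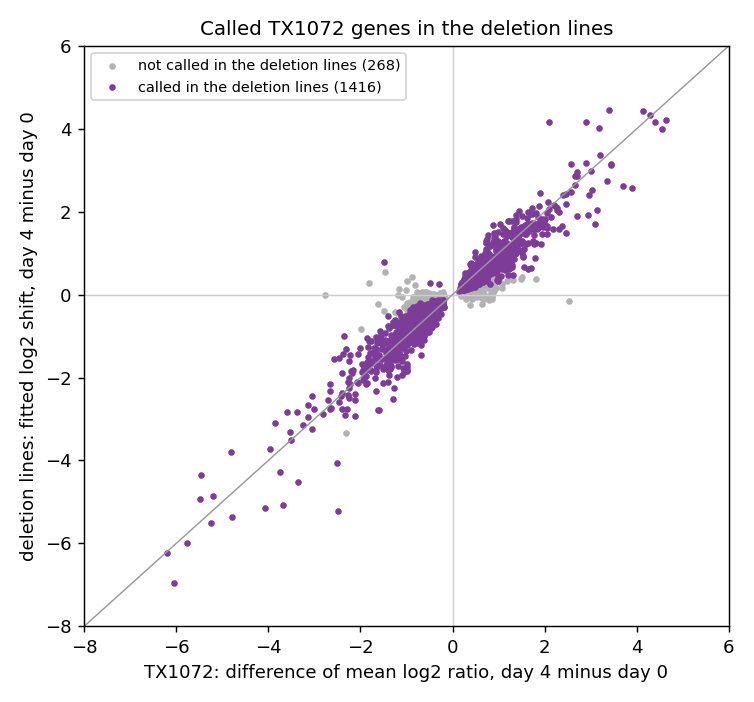
Shift of the allelic ratio from day 0 to day 4 (log2 units) of the called genes in TX1072 (x axis) against the shift averaged over TXdXicB6 and TXdXicCast (y axis, fitted by edgeR), with genes called in the deletion lines in colour. Of the 1684 points, 1635 have the same sign on both axes.

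Single-cell libraries, which count 3′ ends with molecular identifiers (UMIs), gave a further look at the culture of replicate 1. There was 1 culture per day, so no test between days was made, and the intervals cover counting error only. The AS UMIs were summed over 400 capture sites per day. Of 1137 called genes with at least 100 AS UMIs at both days, 953 moved in the same direction (83.8%), and 59.8% of 4470 genes that were not called did so. Of 46 genes with a bulk shift of at least 2, 44 moved in the same direction. Cd276 had 2.27% of 132 AS UMIs from B6 at day 0 (exact 95% interval 0.471 to 6.50%) and 41.0% at day 4 (38.1 to 43.9%). For Dstn the B6 share was 30.2% at day 0 (28.7 to 31.8%) and 57.7% at day 4 (56.6 to 58.7%). For Cyp2b23 it was 99.4% (97.8 to 99.9%) and 28.0% (23.3 to 33.1%). The intervals of the 2 days did not overlap in any of these 3 genes. Tub differed from bulk. It had 9 B6 UMIs among 41 at day 0 (10.6 to 37.6%), above its bulk share of 4.2%, and 12 among 36 at day 4 (18.6 to 51.0%), and the intervals of the days overlapped. The cause was not tested.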

How the data were processed

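Bulk RNA was sequenced in 15 libraries of TX1072 and 30 of TXdXicB6 and TXdXicCast. The authors aligned read pairs with STAR 2.5.2b to mm10 (GRCm38) with N in place of bases that differ between the strains, assigned alleles with SNPsplit, and deposited, in all and per allele, each gene's raw count of exonic reads with 1 alignment. For single cells they deposited counts of UMIs per allele. They also deposited the positions of the SNPs. TX1072 was prepared with a TruSeq total RNA kit and the deletion lines with a KAPA kit, so the 2 sets were fitted apart. Replicates were differentiations of the same clone started on different days.

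The B6 and Cast counts of each library entered 1 model with a term per library, allele, and allele by day (edgeR 4.0.16 in R 4.3.3, quasi-likelihood test, 15 TX1072 or 30 deletion-line libraries, library size the total of all counts). Total expression was fitted by day with TMM factors. Prior to testing, the minimum of 100 AS counts at both days was applied. Called means an adjusted p under 0.05 over all 9166 genes fitted. A printed shift, where not said to be from the edgeR fit, is the difference of mean log2 ratios with a pseudocount of 1, and its SE comes from the replicates. For a shift from the edgeR fit, the SE is its absolute size divided by the square root of the F statistic. Fold changes of an allele used CPM plus 0.05. In a simulation, counts were drawn from the dispersions estimated here, and 200 of 9166 genes were shifted. Of these, 38 of 67 genes were called at a size of 0.5, 52 of 67 at 1 and 65 of 66 at 2. Of 8680 unchanged genes, 11 were called. The data had 1721 calls, far more than the genes shifted in the simulation, so these rates may not hold for the data. Python 3.11.15, scipy 1.17.1, limma 3.58.1 and DESeq2 1.42.0 served the other steps.

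Genes were named by rule among called genes with non-overlapping replicates: the 10 largest shifts and, of protein-coding genes, the 5 smallest adjusted p-values and the 5 largest switches in each direction, up to 4 called genes of each list, and every called imprinted gene. Dppa2, Dppa4, Btg3 and Ccnb1ip1 were named outside this rule, and their shifts were not run under the alternatives for named genes. The genes and lists were chosen with earlier results of these data known. Replicate numbers mark the day on which differentiation was started: deviations from the group mean correlated by 0.048 on average between libraries of the same number (-0.016 to 0.131, 30 pairs, 7493 genes) and by -0.024 between others. Intervals and upper limits for 0 (3 counts) cover counting error only. Spliced and unspliced UMI counts were not used here.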

Additional observations from a re-analysis of the deposited data

Results flagged for a closer look

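In 2 of the named genes the shift differed between the deletion lines (edgeR, allele by day by line term, adjusted over all genes; 90 of 8683 genes passed). Usp29, an imprinted gene, shifted in that fit by 0.30 ± 0.31 (SE of the fit) in TXdXicB6 and by -1.09 ± 0.25 in TXdXicCast. This gene thus had a difference of 1.39 ± 0.41 between the lines (adjusted p = 0.035). Its TXdXicB6 ratios went from 0.00, 0.66 and 0.73 (day 0) to 1.11, 0.94 and 0.81 (day 4), and its TXdXicCast ratios went from 2.25, 1.16 and 1.76 to 0.65, 1.06 and 0.22. The lowest TXdXicB6 value at day 0 belonged to the library with 5.21% AS counts. Vim shifted toward Cast in both lines, in the same fit by -1.26 ± 0.11 in TXdXicB6 and by -1.77 ± 0.09 in TXdXicCast, a difference of 0.52 ± 0.14 (adjusted p = 0.019). The cause was not tested in either gene.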

How the results depend on the processing

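The split of 835 genes toward B6 and 886 toward Cast stayed within 1.5 times under another count minimum, no minimum, a fit of days 0 and 4 alone, centring of each library, limma and DESeq2 (559 and 596). Counted over the 3921 genes whose spans overlap no other gene, with the adjusted p-values as they were, 379 were toward B6 and 357 toward Cast, so that the excess toward Cast became one toward B6. With the replicate block, the pairing by day of induction, 890 and 940 genes were called, 1704 of them also called without it, and the block moved no count by over 1.5 times and ended no call of a named gene. DESeq2 called 124 switches, and 792 and 1101 genes at days 1 and 2; the counts for days 1 to 3 under alternatives were added after seeing the data. Leaving out each day 0 or day 4 library gave 703 to 735 genes toward B6, 738 to 786 toward Cast, 154 to 191 switches, 1041 to 1328, 1383 to 1660 and 1328 to 1561 genes at days 1 to 3, 12 to 16 non-overlapping chromosomes and a median shift of -0.0048 to 0.0017, which reversed without TX1072 day 0 replicate 1 (0.0017). Leaving out each deletion-line library gave 1343 to 1402 genes called in the same direction. The SD over genes at days 0 and 4 was 0.864 and 0.708 with a minimum of 200, 0.969 and 0.778 with a pseudocount of 0.5, and 0.456 and 0.370 as a median absolute deviation. By the median over genes, 4 chromosomes did not overlap. Of 92 named genes, 75 were called under every alternative run, 17 lost the call under at least 1 and none reversed. In the simulation, which shifted only 200 genes and used the dispersions of the fit, 38 of 67 shifts of 0.5 were recovered.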

Other observations

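Snrpn, a paternally expressed imprinted gene, gave different B6 shares in the assays: 49.0% of AS counts at day 0 and 44.6% at day 4 in bulk, against 4.29% of 163 AS UMIs (exact 95% interval 1.74 to 8.65%) and 3.13% (2.25 to 4.24%) in the single-cell 3′ counts. In the deletion lines its bulk ratios lay between -0.22 and 0.11. The gene was singled out after its values were seen, and the cause was not tested.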
